A study of Mus musculus with 12 samples.

Results

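The genes described here are 10 mouse genes of oxidative protein folding in the endoplasmic reticulum, 7 thiol isomerases of the protein disulfide isomerase family (P4hb, Pdia3, Pdia4, Pdia5, Pdia6, Txndc5 and the membrane-bound Tmx1), the oxidases Ero1lb and Ero1l, and the peroxidase Prdx4. They were taken by name from a table of read counts for 38561 genes, and all 10 were among the 15352 genes that passed the filter on low counts and were tested. The counts come from pancreatic islets of 12 male mice aged 11 weeks, 3 mice in each of 4 groups and 1 RNA-seq library per mouse. NOD_insHEL mice have the NOD/LtJ background, which is prone to autoimmune diabetes, and carry insHEL, the transgene Tg(ILK3mHEL)3Ccg, in which an insulin promoter drives hen egg lysozyme. The lysozyme transcript itself was not analysed here. NOD mice have the same background without the transgene. B10_insHEL mice carry insHEL on a C57BL/10 background, labelled C57BL/10SnSg, and B10 mice have that background alone. All 4 groups are Rag-/- (allele Ragtm1Mom), so that they lack mature B and T cells, all carry the MHC k haplotype, and all were normoglycemic. The comparisons ask how islet transcripts differ with the transgene in each strain and between the strains in mice lacking mature B and T cells.

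Proteins that leave a cell through the endoplasmic reticulum are held in shape by disulfide bonds. Isomerases make, break and rearrange these bonds, ERO1 oxidases pass electrons from the isomerases to oxygen and release hydrogen peroxide, and peroxiredoxin 4 uses that peroxide to form further disulfides. Pancreatic beta cells depend on this machinery because proinsulin folds through disulfide bonds, and in mice Ero1lb is the oxidase known to be abundant in the pancreas. When unfolded proteins accumulate, the unfolded protein response raises transcription of chaperones and of many isomerases through the transcription factors ATF6, XBP1 and ATF4.

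The promoters of the 10 genes were read for the endoplasmic reticulum stress response element, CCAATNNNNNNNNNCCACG, the sequence through which ATF6 and XBP1 act together with NF-Y on Hspa5. All 10 genes had an entry in the RefSeq promoter table (GRCm38.p6, with Ero1l and Ero1lb as Ero1a and Ero1b). The 250 bases before each start site and a shorter stretch after it were searched on both strands, here and in all promoters. Only exact matches of the fixed letters were counted, so that near matches were not looked for. All matches in the 10 genes and Hspa5 lay before the start. The letters are those of the reference genome and not of the NOD or C57BL/10 mice. The element was found for Pdia6 and Ero1lb, and in Hspa5, and 39 of 32851 promoters (0.119%) hold it. These 3 promoters are shown because they hold the element, with its CCAAT and CCACG ends, or their complements, in capitals. The Pdia6 promoter is chr12:17266339-17266588 (plus strand), with the element from base -98 to -80 before the start. The Ero1lb promoter is chr13:12565633-12565882 (plus strand), with the element on the opposite strand from -201 to -183. The Hspa5 promoter is chr2:34771840-34772089 (plus strand), with the element from -65 to -47.
Pdia6: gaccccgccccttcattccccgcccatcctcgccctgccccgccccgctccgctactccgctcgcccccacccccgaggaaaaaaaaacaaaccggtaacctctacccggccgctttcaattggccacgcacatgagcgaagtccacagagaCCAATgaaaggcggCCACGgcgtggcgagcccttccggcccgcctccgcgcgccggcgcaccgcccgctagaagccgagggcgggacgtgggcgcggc
Ero1lb: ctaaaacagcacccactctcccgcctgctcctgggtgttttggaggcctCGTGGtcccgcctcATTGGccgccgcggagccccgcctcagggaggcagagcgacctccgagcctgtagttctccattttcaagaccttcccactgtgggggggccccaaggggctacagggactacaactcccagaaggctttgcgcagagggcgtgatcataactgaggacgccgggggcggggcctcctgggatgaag
Hspa5: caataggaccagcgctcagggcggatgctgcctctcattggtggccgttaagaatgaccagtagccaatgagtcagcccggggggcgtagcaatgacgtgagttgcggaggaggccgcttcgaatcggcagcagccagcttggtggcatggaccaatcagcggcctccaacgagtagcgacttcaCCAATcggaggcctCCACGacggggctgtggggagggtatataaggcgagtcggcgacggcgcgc

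Library totals ran from 2212062 counts in NOD_insHEL replicate 3 to 21138456 counts in B10 replicate 2. Insulin transcripts, Ins1 and Ins2 together, held 15.8% to 25.6% of counts. The 10 beta cell markers held 19.3% to 28.3%, so that the tissue label was met by its defining markers. By group these markers held 19.3% to 21.5% in B10 and 20.6% to 25.7% in B10_insHEL libraries. They held 25.9% to 26.9% in NOD and 25.5% to 28.3% in NOD_insHEL libraries. Rag1 had 13 to 141 counts and Rag2 had 0 in all libraries. These counts do not show which Rag gene is disrupted, which the label does not spell out. Transcripts of acinar cells, the enzyme-secreting cells of the exocrine pancreas, differed between groups. The 15 acinar markers summed to 57.3 to 96.1 CPM in NOD_insHEL libraries and to 141 to 249 CPM in NOD libraries, where CPM is the read count scaled to a common library total. In B10_insHEL they summed to 65.9, 2196 and 43.6 CPM, and in B10 to 3187 to 4098 CPM, with Amy2a5 at 0 counts in every library. Averaged over the transgene, all 14 acinar markers tested were called lower in NOD, where 17.6% of all tested genes were lower and 15.7% higher. Of 7 endothelial markers 6 were higher and 1 lower, and 3 of 3 delta cell and 2 of 5 stellate markers were higher. Of 4 Schwann cell markers 2 were higher and 1 lower. Of 10 beta cell markers 4 were higher and 3 lower, of 7 duct markers 2 and 1, and 1 of 6 alpha cell markers was lower. In NOD_insHEL islets 4 of 7 endothelial and 3 of 7 duct markers were called lower than in NOD, against 3.18% of all tested genes. Of 6 macrophage markers 1 was called higher and 1 lower there, where 3.88% of all tested genes were called higher. None of the 6 was called in the averaged strain difference or with insHEL in B10. Endothelial markers summed to 733 to 884 CPM in NOD_insHEL and 968 to 1408 CPM in NOD. Duct markers summed to 242 to 254 CPM in NOD_insHEL and 310.3 to 387 CPM in NOD. Alpha cell markers summed to 7414 CPM in NOD replicate 2 and 6027 CPM in B10 replicate 3. The other libraries had 20978 to 32598 CPM. In B10_insHEL islets 1 of 6 alpha cell markers was called higher than in B10. Of 10 beta cell markers 2 were called higher and 2 lower there, against 4.09% and 2.76% of all tested genes. The part of these cell types in the results was not tested. The sample descriptions give the B10 libraries higher numbers than all others. Whether these numbers mark a batch is not given in the sources used here, and a batch of this kind and the B10 group cannot be told apart. In whole islets, a lower share of a cell type and less RNA per cell cannot be told apart either.

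Carrying insHEL went with higher transcript levels of 4 of the 7 isomerases in both strains. P4hb, Pdia3, Pdia6 and Pdia4 rose in NOD_insHEL islets relative to NOD and in B10_insHEL islets relative to B10. Prdx4 also rose in NOD_insHEL islets, and Pdia5 and Txndc5 also rose in B10_insHEL islets. The oxidases Ero1lb and Ero1l and the isomerase Tmx1 passed the test in neither strain. The threshold was an adjusted p of 0.05 in edgeR's quasi-likelihood test with Benjamini-Hochberg adjustment over all 15352 genes.

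P4hb encodes the founding protein disulfide isomerase, which is also a subunit of prolyl 4-hydroxylase. Its gene lies on the minus strand at chr11:120560298-120573253 (GRCm38). P4hb had 1650.5, 1377 and 1278 CPM in the 3 NOD_insHEL libraries, against 978, 1064 and 918 CPM in the 3 NOD libraries. It had 1534, 1382 and 2006 CPM in B10_insHEL libraries, against 932, 1046 and 1015 CPM in B10 libraries. Every transgenic library lay above every library without the transgene, whatever the strain. The log2 fold change was 0.54 (SE 0.13, adjusted p = 0.0190) in NOD and 0.72 (SE 0.13, adjusted p = 0.00267) in B10.

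Pdia3 (chr2:121413775-121438687, plus strand) encodes ERp57, which works with calnexin and calreticulin on glycoproteins. It had 2159, 2052 and 1866 CPM in NOD_insHEL libraries, against 1372, 1239 and 1133 CPM in NOD libraries. In B10_insHEL libraries it had 1726, 1723 and 2196 CPM, against 1169, 1289.6 and 1374 CPM in B10 libraries. Here too all 6 transgenic libraries stood above the 6 others. The fold changes were 1.62-fold in NOD (log2 0.70, SE 0.12, adjusted p = 0.00432) and 1.47-fold in B10 (log2 0.56, SE 0.12, adjusted p = 0.00757).

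Pdia6 (chr12:17266545-17284770, plus strand) encodes the isomerase P5, which is known to bind the stress sensors IRE1 and PERK, and its promoter is printed above. Its levels were 868, 780.0 and 709.7 CPM in NOD_insHEL libraries, against 527, 514 and 539.7 CPM in NOD libraries. They were 758, 805 and 1194 CPM in B10_insHEL libraries, against 567, 549.7 and 509 CPM in B10 libraries. The NOD libraries and the B10 libraries were close to each other and the transgenic ones lay above both. Its log2 fold change was 0.58 (SE 0.14, adjusted p = 0.0170) in NOD and 0.76 (SE 0.14, adjusted p = 0.00229) in B10.

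Pdia4 (chr6:47796141-47813430, minus strand) encodes ERp72, an isomerase that is found in chaperone complexes with BiP. It had 317, 328 and 264 CPM in NOD_insHEL libraries, against 194, 199 and 196 CPM in NOD libraries. It had 307, 419 and 566 CPM in B10_insHEL libraries, against 202, 254 and 190.4 CPM in B10 libraries. The 2 sides did not overlap in either strain, and the B10_insHEL libraries were spread more widely (430 ± 130 CPM, SD, n = 3) than the NOD_insHEL ones (303 ± 34.3 CPM, SD, n = 3). The log2 fold change of 1.00 in B10 (SE 0.17, adjusted p = 0.00260) was the highest of the 10 genes in either strain, and that in NOD was 0.63 (SE 0.17, adjusted p = 0.0377).

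Txndc5 (chr13:38500079-38528824, minus strand) encodes ERp46, and Pdia5 (chr16:35397312-35490873, minus strand) encodes PDIR. Txndc5 had 218, 189.9 and 180.1 CPM in NOD_insHEL libraries against 163, 162 and 168 CPM in NOD libraries, and 238, 240.1 and 306 CPM in B10_insHEL libraries against 164, 186 and 175 CPM in B10 libraries. Pdia5 had 52.2, 43.1 and 48.8 CPM in NOD_insHEL libraries against 41.4, 40.3 and 34.7 CPM in NOD libraries, and 43.8, 50.6 and 68.4 CPM in B10_insHEL libraries against 31.0, 39.6 and 31.5 CPM in B10 libraries. For both genes the libraries did not overlap in either strain, but the test was passed in B10 alone. In B10 the log2 fold changes were 0.58 for Txndc5 (SE 0.11, adjusted p = 0.00366) and 0.67 for Pdia5 (SE 0.15, adjusted p = 0.00878). In NOD they were 0.26 (adjusted p = 0.173) and 0.30 (adjusted p = 0.243), with 95% intervals of 0.02 to 0.50 and -0.02 to 0.62.

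Tmx1 (chr12:70453095-70468040, plus strand) encodes a thioredoxin-like isomerase anchored in the membrane of the endoplasmic reticulum. It averaged 152 ± 19.0 CPM in NOD_insHEL islets and 123 ± 11.5 CPM in NOD islets, and 164 ± 12.7 CPM in B10_insHEL islets and 153 ± 10.2 CPM in B10 islets (SD, n = 3 each). The libraries overlapped in both strains, and the log2 differences of 0.31 in NOD (adjusted p = 0.0969) and 0.10 in B10 (adjusted p = 0.659) missed the threshold.

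**Figure D1:**
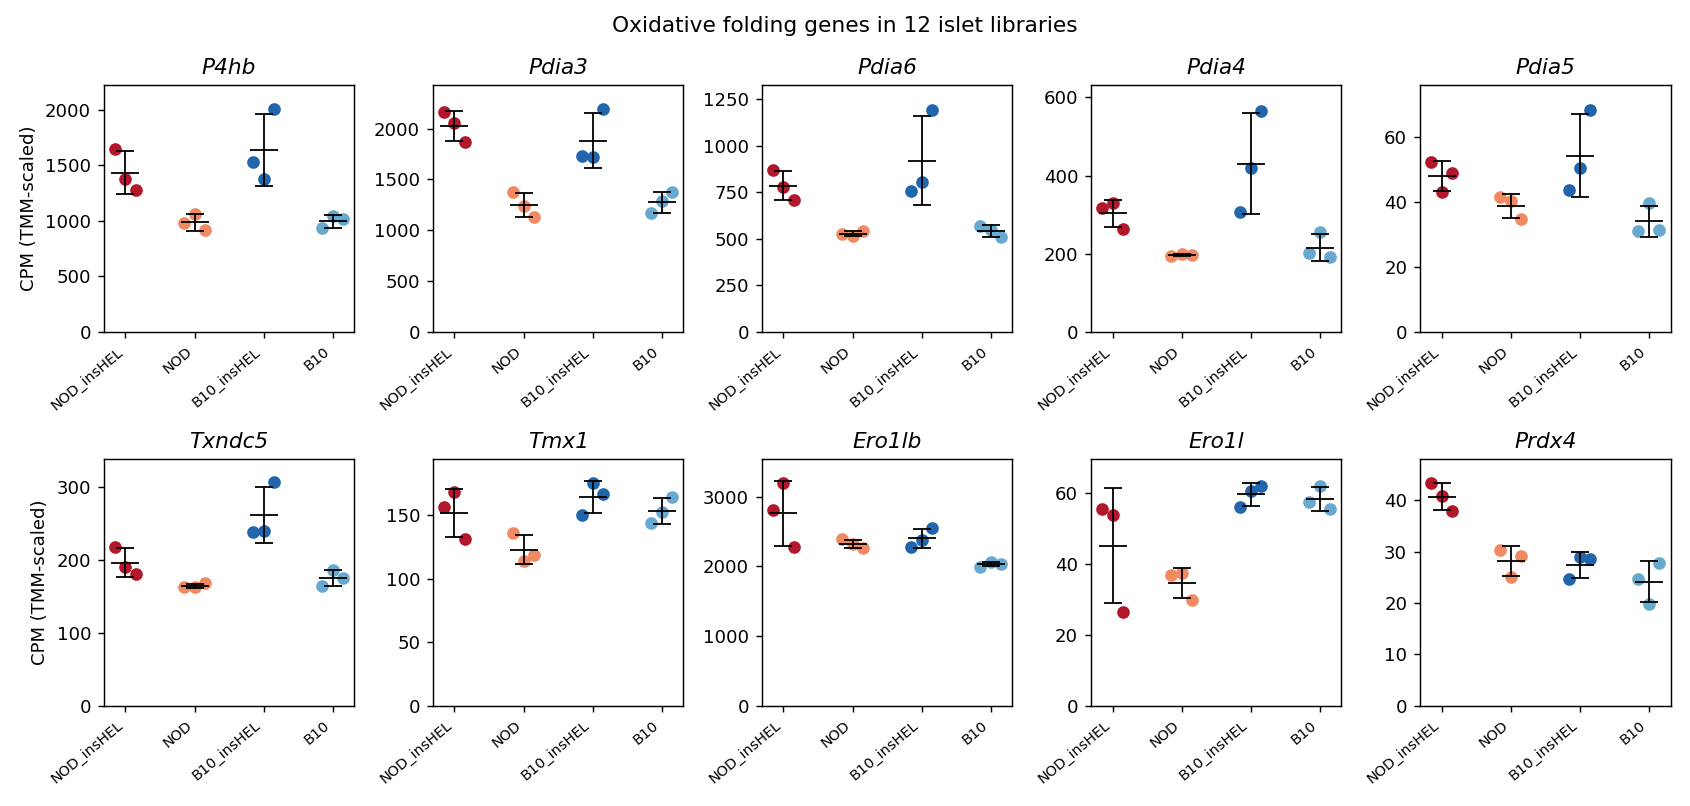
Levels of the 10 genes in each library, in CPM on TMM-scaled library totals, from an axis that starts at 0. Points are single mice, and bars give the mean and SD of 3 mice in NOD_insHEL, NOD, B10_insHEL and B10, from left to right. For P4hb, Pdia3, Pdia6 and Pdia4 all transgenic points lie above all points without the transgene. Ero1l of NOD_insHEL replicate 3, at 26.3 CPM, lies apart from the 55.2 and 53.6 CPM of its group.

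Ero1lb, the oxidase at the higher level, rose in neither strain by the test. Ero1lb (chr13:12565874-12611396, plus strand) had 2805, 3196 and 2274 CPM in NOD_insHEL libraries, against 2385, 2319.8 and 2261 CPM in NOD libraries. It had 2280.0, 2376 and 2548 CPM in B10_insHEL libraries, against 1997, 2056 and 2030.4 CPM in B10 libraries. The libraries overlapped in NOD and did not overlap in B10. The log2 differences were 0.25 in NOD (95% interval 0.01 to 0.49, adjusted p = 0.202) and 0.24 in B10 (95% interval 0.00 to 0.49, adjusted p = 0.228).

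Ero1l (chr14:45283087-45318771, minus strand) encodes the widely expressed oxidase ERO1 alpha, which is known to be induced by hypoxia. It had 55.2, 53.6 and 26.3 CPM in NOD_insHEL libraries, against 36.7, 37.5 and 29.8 CPM in NOD libraries. In B10_insHEL libraries it had 55.9, 60.6 and 61.8 CPM, against 57.3, 61.9 and 55.2 CPM in B10 libraries. The low value of NOD_insHEL replicate 3 is 56 counts in the shallowest library. With it the log2 difference in NOD was 0.44 (adjusted p = 0.138), and without it 0.65 (adjusted p = 0.00530). In B10 the log2 difference was 0.03 (95% interval -0.32 to 0.38, adjusted p = 0.941).

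Prdx4 (chrX:155323918-155340754, minus strand) had 43.3, 40.9 and 38.0 CPM in NOD_insHEL libraries, against 30.4, 25.0 and 29.2 CPM in NOD libraries. It had 24.6, 28.9 and 28.7 CPM in B10_insHEL libraries, against 24.7, 19.8 and 27.7 CPM in B10 libraries. The 3 NOD_insHEL libraries stood above the 9 others. The log2 fold change in NOD was 0.55 (SE 0.14, adjusted p = 0.0250), and the log2 difference in B10 was 0.19 (95% interval -0.09 to 0.48, adjusted p = 0.450).

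Counted together, 5 of the 10 genes rose in NOD_insHEL islets, where 3.88% of all tested genes were called higher, and 6 of 10 rose in B10_insHEL islets, where 4.09% were. None of the 10 was called lower, against 3.18% of all tested genes in NOD and 2.76% in B10. The 4 genes called in both strains were P4hb, Pdia3, Pdia6 and Pdia4. Libraries of the 2 sides did not overlap, with the transgenic side higher, for 7 of the 10 genes in NOD and 7 in B10, against 13.3% and 13.1% of all tested genes. The median log2 fold change of the 10 genes was 0.49 in NOD and 0.57 in B10, against -0.01 and -0.00 over all tested genes. The 10 genes summed to 7790 ± 845 CPM in NOD_insHEL islets and 5668 ± 221 CPM in NOD islets, and to 7840 ± 1130 CPM in B10_insHEL islets and 5505 ± 193 CPM in B10 islets (SD, n = 3 each).

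**Figure D2:**
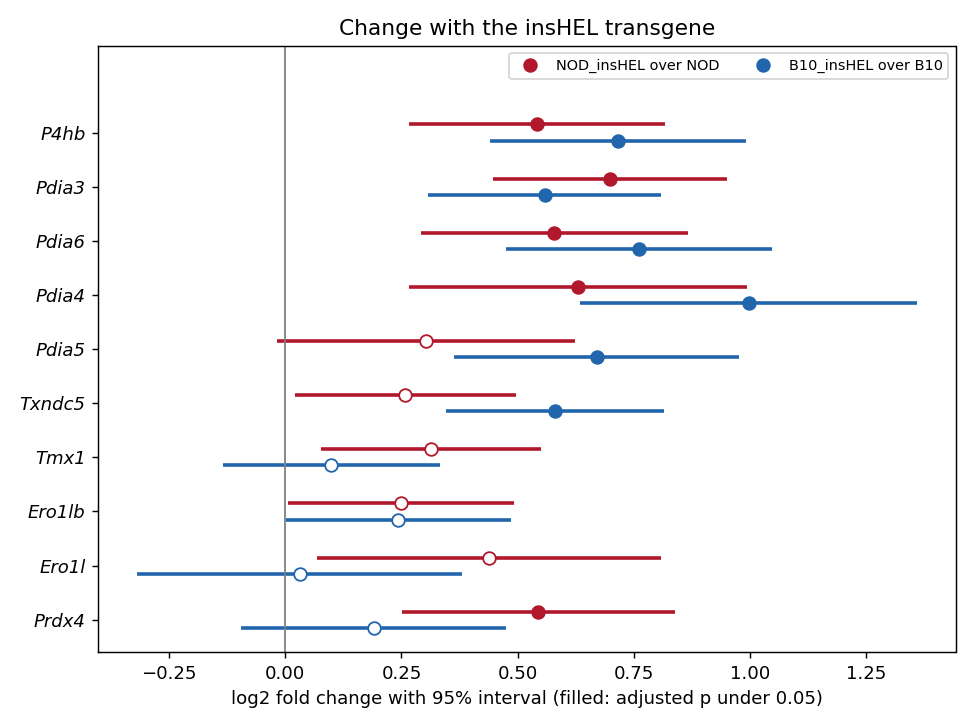
Change of each gene with the insHEL transgene, as the log2 fold change (horizontal axis) with its 95% interval, for NOD_insHEL over NOD and for B10_insHEL over B10. Filled points have an adjusted p under 0.05 in edgeR's quasi-likelihood test. Pdia4 reached 1.00 in B10 and 0.63 in NOD, whereas Ero1lb was at 0.25 in NOD and 0.24 in B10, with open points.

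Single libraries carried some of these calls. In NOD, 1 gene was called without NOD replicate 3, without NOD_insHEL replicate 1 or without NOD_insHEL replicate 2, 2 genes without NOD replicate 2, 4 without NOD replicate 1 or B10 replicate 1, and 8 without NOD_insHEL replicate 3. Pdia3 kept its call in each of these fits. The values themselves moved little, from 0.43 to 0.62 for P4hb, 0.50 to 0.65 for Pdia6, 0.57 to 0.72 for Pdia4 and 0.46 to 0.61 for Prdx4 on the log2 scale. Leaving out NOD_insHEL replicate 3 put Ero1lb (log2 0.37, adjusted p = 0.0369) and Tmx1 (log2 0.40, adjusted p = 0.0387) past the threshold beside Ero1l. In B10, P4hb, Pdia6, Pdia4 and Txndc5 were called in all 12 such fits. Pdia3 and Pdia5 were not called without B10 replicate 1 (log2 0.50 and 0.61) or without B10_insHEL replicate 3 (log2 0.43 and 0.47), and Pdia5 was not called without B10 replicate 3 (log2 0.61).

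The 15 acinar markers summed to lower levels in every NOD_insHEL library than in any NOD library and in every B10_insHEL library than in any B10 library, although none of the 14 tested was called in either comparison. Given the acinar score (the mean log2 CPM of the 15 markers) as a covariate, 4 of the 10 genes stayed called in NOD and Pdia4 did not (log2 0.60, adjusted p = 0.0693). In B10 none stayed called under the same covariate, with log2 values of 0.88 for Pdia4 (adjusted p = 0.128), 0.50 for Pdia6 (adjusted p = 0.250) and 0.43 for P4hb (adjusted p = 0.333). The standard errors were wider than without the covariate, at 0.26 for Pdia4, 0.20 for Pdia6 and 0.19 for P4hb. Calls over all tested genes fell from 1052 to 237 in this comparison. B10_insHEL replicate 2 lay nearest to the B10 libraries, with an acinar score of 6.05 beside 6.60 to 6.93 in B10 libraries and 1.46 and 0.992 in the other B10_insHEL libraries. In that library Pdia4 was at 419 CPM, P4hb at 1382 CPM and Pdia6 at 805 CPM, each above all 3 B10 libraries. This is 1 library, and the part of acinar transcripts in the change with insHEL was not tested.

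**Figure D3:**
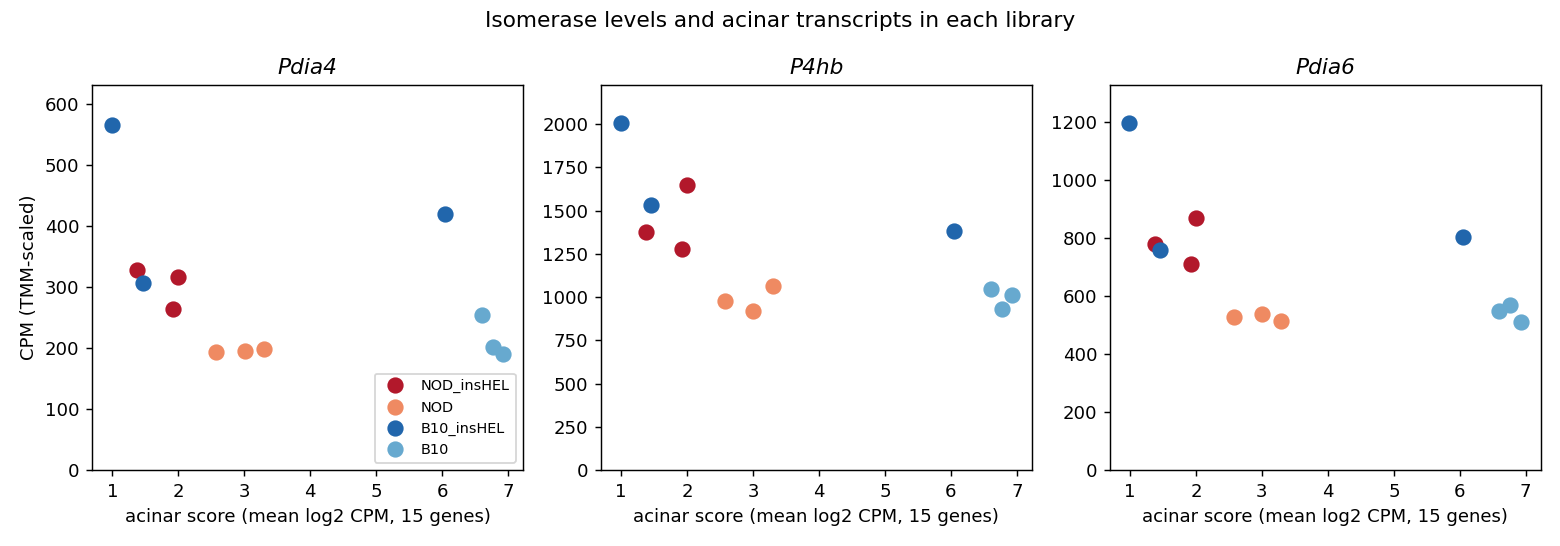
Level of Pdia4, P4hb and Pdia6 in CPM (vertical axis, from 0) against the acinar score of the same library (horizontal axis, mean log2 CPM of 15 acinar genes). Each point is 1 of 12 libraries, coloured by group. B10_insHEL replicate 2 sits at an acinar score of 6.05 beside the B10 libraries and above them in all 3 genes.

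Whether insHEL acted differently in the 2 strains was asked with an interaction term, the change in NOD minus the change in B10. None of the 10 genes was called in edgeR's quasi-likelihood test, where 0.0586% of all genes were. None had an unadjusted p under 0.05 (1873 of 15352 genes did), and none was called by DESeq2, which called 83 genes. The adjusted p values of the 10 genes ran from 0.428 to 0.996. The intervals leave room for unequal changes. They spanned -0.66 to 0.01 for Txndc5, -0.88 to 0.14 for Pdia4, -0.81 to 0.07 for Pdia5, -0.06 to 0.76 for Prdx4 and -0.10 to 0.92 for Ero1l (95%, log2). Thus the calls of Prdx4 in NOD alone and of Pdia5 and Txndc5 in B10 alone are not shown to be a difference between strains.

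The strains themselves differed in a few of these genes. Averaged over the transgene (6 libraries against 6), Ero1l, Txndc5 and Tmx1 were lower and Prdx4 was higher in NOD than in B10. Of all tested genes 17.6% were called lower and 15.7% higher in that comparison, so that 4 of 10 genes called is near the 33.3% over all genes. P4hb, Pdia3 and Pdia6, which rose with insHEL in both strains, were not called, with averaged log2 differences of -0.10 (95% interval -0.30 to 0.09), 0.04 (-0.14 to 0.21) and -0.13 (-0.34 to 0.07). Pdia4, which also rose in both strains, narrowly missed the threshold in edgeR's quasi-likelihood test (log2 -0.32, adjusted p = 0.0524). It passed in 5 of 18 alternatives, among them DESeq2's test (log2 -0.32, adjusted p = 0.0296).

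Ero1l had the largest averaged strain difference of the 10 genes. Among mice without the transgene it averaged 34.6 ± 4.24 CPM in NOD islets and 58.2 ± 3.44 CPM in B10 islets (SD, n = 3 each), and the libraries did not overlap. In edgeR's quasi-likelihood test the log2 fold change was -0.74 (SE 0.17, adjusted p = 0.00364). Among transgenic mice all NOD_insHEL libraries were also below all B10_insHEL libraries, at 45.1 ± 16.3 CPM and 59.4 ± 3.11 CPM, but the log2 difference of -0.33 missed the threshold (adjusted p = 0.238). It was -0.13 without NOD_insHEL replicate 3 (adjusted p = 0.601). Averaged over the transgene it was -0.54 (SE 0.12, adjusted p = 0.00244).

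Prdx4 ran the other way. It averaged 40.7 ± 2.64 CPM in NOD_insHEL islets and 27.4 ± 2.44 CPM in B10_insHEL islets (SD, n = 3 each), with no overlap, and its log2 fold change was 0.58 (SE 0.14, adjusted p = 0.00845). It was 0.53 without NOD_insHEL replicate 1 (adjusted p = 0.0522). Among non-transgenic mice the values were 28.2 ± 2.84 CPM in NOD and 24.1 ± 3.99 CPM in B10, with overlap and a log2 difference of 0.23 (adjusted p = 0.223).

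Txndc5 was lower in NOD_insHEL than in B10_insHEL islets, at 196 ± 19.6 CPM and 262 ± 38.7 CPM (SD, n = 3 each; log2 -0.41, SE 0.11, adjusted p = 0.0200). This call was lost without B10_insHEL replicate 3 (log2 -0.28, adjusted p = 0.120), NOD_insHEL replicate 2 (log2 -0.39) or NOD_insHEL replicate 3 (log2 -0.36). Without the transgene Txndc5 averaged 164 ± 2.94 CPM in NOD and 175 ± 10.8 CPM in B10 (log2 -0.09, adjusted p = 0.587). Averaged over the transgene it was -0.25 (adjusted p = 0.0202), and -0.19 without B10_insHEL replicate 3 (adjusted p = 0.0641).

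Tmx1 was lower in NOD than in B10 islets without the transgene (123 ± 11.5 CPM and 153 ± 10.2 CPM, SD, n = 3 each; log2 -0.32, SE 0.11, adjusted p = 0.0387), and the libraries did not overlap. That call was lost without B10 replicate 2 (log2 -0.35) or 3 (log2 -0.29), or without NOD replicate 2 (log2 -0.27) or 3 (log2 -0.30). The averaged difference of -0.21 (adjusted p = 0.0469) was lost without any 1 of 8 libraries, at log2 -0.17 to -0.23.

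In all, 1 of the 10 genes was called higher and 1 lower between NOD_insHEL and B10_insHEL, where 5.55% and 6.50% of all genes were. Between NOD and B10, 2 were called lower and 0 higher, where 14.9% and 13.5% of all genes were. Pdia4 was the nearest miss, at 303 ± 34.3 CPM in NOD_insHEL and 430 ± 130 CPM in B10_insHEL (SD, n = 3 each; log2 -0.50, 95% interval -0.86 to -0.14, adjusted p = 0.0679). Once the acinar score entered the model, Ero1l was at log2 -0.74 between NOD and B10 (adjusted p = 0.0901), the same size with a wider error, and Tmx1 at -0.25 (adjusted p = 0.419). Under that model the calls of Txndc5 (-0.45, adjusted p = 0.0111) and Prdx4 (0.61, adjusted p = 0.00887) between NOD_insHEL and B10_insHEL stayed, as did the averaged ones of Ero1l (-0.53, adjusted p = 0.0472), Txndc5 (-0.34, adjusted p = 0.0354) and Prdx4 (0.46, adjusted p = 0.0335). Libraries did not overlap for 3 of the 10 genes between NOD_insHEL and B10_insHEL (Txndc5, Ero1l and Prdx4) and for 3 between NOD and B10 (Tmx1, Ero1lb and Ero1l), against 27.0% and 47.6% of all genes. In the strain comparisons that include B10, the part of acinar transcripts and of the description numbers cannot be told apart from strain. In B10_insHEL against B10, the part of the description numbers cannot be told apart from the transgene.

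**Figure D4:**
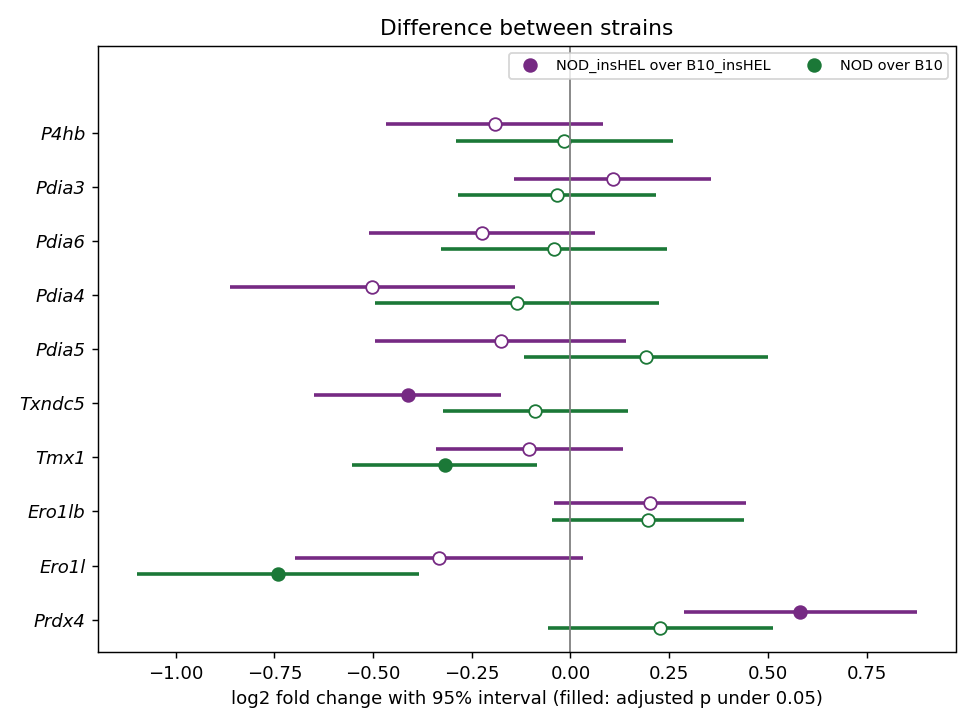
Difference between strains for each gene, as the log2 fold change (horizontal axis) with its 95% interval, for NOD_insHEL over B10_insHEL and for NOD over B10. Filled points have an adjusted p under 0.05. Ero1l lies lowest (-0.74 in NOD over B10) and Prdx4 highest (0.58 in NOD_insHEL over B10_insHEL).

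Per length of exon the genes ranked in a wide order. Over the 12 libraries Pdia3 had 512 ± 126 CPM per kilobase of merged exons, P4hb 442 ± 118 and Ero1lb 357 ± 51.4 (SD, n = 12). Pdia6 followed with 185 ± 54.6 and Pdia4 with 119 ± 47.2 CPM per kilobase. Tmx1 (44.8 ± 6.01) and Txndc5 (44.3 ± 9.77) came next, then Pdia5 (15.8 ± 3.74), Prdx4 (14.3 ± 3.37) and Ero1l (9.33 ± 2.45), in the same unit. The neighbours Pdia3 and P4hb, Tmx1 and Txndc5, and Pdia5 and Prdx4 differed by less than the SD of either gene, and P4hb and Ero1lb by less than the SD of P4hb but more than that of Ero1lb. This SD spans all 4 groups and so holds the change with insHEL. Within single libraries Pdia3 lay above P4hb in all but B10_insHEL replicate 3 (699.7 against 701.3). By group, Ero1lb (349) was level with P4hb (345) in NOD, Txndc5 (58.2) lay above Tmx1 (49.7) in B10_insHEL, and Prdx4 (19.3) above Pdia5 (17.3) in NOD_insHEL. With the longest transcript as the length, Ero1lb (560.8) passed P4hb (442), Txndc5 (70.1) passed Tmx1 (52.9) and Prdx4 (29.4) passed Pdia5 (24.2).

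Of the oxidases, Ero1lb was far above Ero1l in every library. The ratio of their levels per kilobase was 40.3, 47.3 and 68.8 in NOD_insHEL libraries and 51.6, 49.2 and 60.3 in NOD libraries. It was 32.4, 31.2 and 32.7 in B10_insHEL libraries and 27.7, 26.4 and 29.2 in B10 libraries. All 6 libraries on the NOD background lay above all 6 on the C57BL/10 background, in a ratio that both oxidases enter with opposite signs of strain difference (Ero1lb 0.20, adjusted p = 0.0696, and Ero1l -0.54, adjusted p = 0.00244, averaged over the transgene on the log2 scale).

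**Figure D5:**
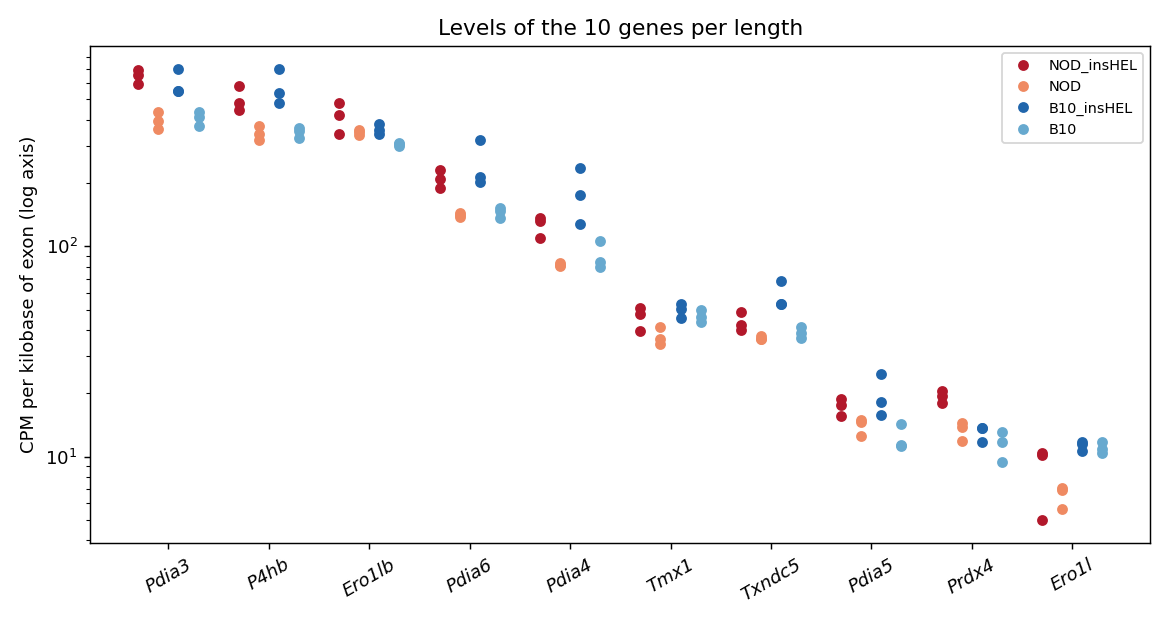
Levels of the 10 genes in CPM per kilobase of merged exons (vertical log axis), ordered by their mean over 12 libraries. Points are single libraries, in the order NOD_insHEL, NOD, B10_insHEL and B10 within each gene. The means run from 512 for Pdia3 to 9.33 for Ero1l.

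Other genes of oxidative folding were followed in a list of 28, of which 25 were tested and Pdilt, Agr2 and Agr3 did not pass the filter. In NOD_insHEL islets 5 of the 25 were called higher and 0 lower, with a median log2 fold change of 0.17. Of all tested genes 3.88% were called higher and 3.18% lower there. Erp44, which retrieves ERO1 oxidases to the endoplasmic reticulum, rose in both strains (log2 0.67 in NOD, SE 0.15, adjusted p = 0.0110, and 0.67 in B10, SE 0.14, adjusted p = 0.00798). It had 217, 189 and 156 CPM in NOD_insHEL libraries against 119, 125 and 111 CPM in NOD libraries, and 167, 219 and 263 CPM in B10_insHEL libraries against 122, 144 and 143 CPM in B10 libraries. The oxidoreductase Selenof (0.53) and the oligosaccharyltransferase subunit Magt1 (0.56) also rose in NOD. In B10_insHEL islets 6 of the 25 were called higher and 0 lower, with a median of 0.25, where 4.09% and 2.76% of all tested genes were. Under the acinar covariate 5 of the 25 were called higher in NOD and 0 in B10, where Erp44 was at log2 0.66 (adjusted p = 0.158), Creld2 at 1.28 (adjusted p = 0.293), Erp29 at 0.32 (adjusted p = 0.496) and Vkorc1 at 0.33 (adjusted p = 0.607). Creld2, an isomerase-like gene known to be induced by endoplasmic reticulum stress, had the largest change in B10 (log2 1.54, SE 0.31, adjusted p = 0.0196). Erp29 (0.75) and Vkorc1 (0.56), a vitamin K epoxide reductase subunit, rose there as well. In NOD these calls were lost without NOD_insHEL replicate 1 (log2 0.44 to 0.55), those of Erp44 and Magt1 also without NOD_insHEL replicate 2, and those of Erp44 and Selenof also without NOD replicate 3. In B10 the call of Erp44 was lost without B10 replicate 1 or B10_insHEL replicate 3, that of Creld2 without any 1 of the 3 B10 libraries (log2 1.41 to 1.63), and that of Vkorc1 without any of these 4 libraries (log2 0.33 to 0.65).

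Most of the chaperones that work beside the isomerases rose with insHEL. Of 10 listed, 8 were called higher in NOD_insHEL islets (median log2 fold change 0.63) and 9 in B10_insHEL islets (median 0.96), with 0 lower in either. Of all tested genes 3.88% were called higher in NOD_insHEL islets and 4.09% in B10_insHEL islets. Under the acinar covariate 5 of the 10 were called higher in NOD, where Dnajb9 (adjusted p = 0.0784) and Manf (adjusted p = 0.0543) were among the calls lost. In B10 Hsp90b1 alone stayed called (log2 0.74, adjusted p = 0.0381). Hspa5, which encodes BiP, averaged 2713 ± 312 CPM in NOD_insHEL and 1579 ± 71.6 CPM in NOD (log2 0.78, SE 0.16, adjusted p = 0.00848), and 3423 ± 949 CPM in B10_insHEL and 1695 ± 228 CPM in B10 (log2 1.01, SE 0.16, adjusted p = 0.000832; SD, n = 3 each). Sdf2l1 (0.90 in NOD and 1.35 in B10), Dnajb9 (0.85 and 1.12), Hyou1 (0.70 and 0.92), Dnajc3 (0.73 and 0.81), Manf (0.57 and 1.14) and Hsp90b1 (0.54 and 0.63) rose in both strains, given as log2 fold changes. Calr (0.64) and Dnajb11 (1.00) passed the size limit of 0.5 in B10. Without NOD_insHEL replicate 1 none of the 7 chaperones named in NOD was called (log2 0.48 for Manf to 0.81 for Dnajb9), and Hspa5 alone of the 7 was called without NOD_insHEL replicate 2. Without NOD replicate 1, 2 or 3 the calls of Dnajb9, Hyou1, Manf and Sdf2l1 in NOD were lost as well, and Sdf2l1 lost its call in 10 of the 12 fits (log2 0.72 to 0.98). Those of Dnajc3 (without NOD replicate 2 or 3), Hsp90b1 (without NOD replicate 2) and Dnajb9 (without B10_insHEL replicate 2) were also lost in NOD, and that of Dnajb9 in B10 without B10 replicate 1 or B10_insHEL replicate 3. With the acinar covariate Hspa5 was at 0.72 in NOD (adjusted p = 0.0121) and 0.79 in B10 (adjusted p = 0.0842). Of 6 regulators of the stress response (Ddit3, Atf4, Atf6, Xbp1, Ern1 and Eif2ak3), none was called in NOD_insHEL and Atf6 rose in B10_insHEL islets (log2 0.59, adjusted p = 0.00937, a call lost without B10 replicate 1). These counts stand beside the 3.88% and 4.09% of all tested genes called higher in NOD and B10.

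Between strains the wider list was mixed. Averaged over the transgene, 4 of 25 genes were called higher and 6 lower in NOD, with a median log2 difference of -0.09, where 15.7% of all genes were called higher and 17.6% lower. Under the acinar covariate 0 of the 25 were called higher and 3 lower. Qsox1, a secretory pathway oxidase that forms disulfides without ERO1, had the lowest adjusted p. It averaged 53.7 ± 6.95 CPM in NOD_insHEL and 123 ± 20.7 CPM in B10_insHEL, and 49.2 ± 3.92 CPM in NOD and 103 ± 2.97 CPM in B10 (SD, n = 3 each). Every NOD library was below every C57BL/10 library, and the averaged log2 fold change was -1.12 (SE 0.09, adjusted p = 5.5e-09). With the acinar covariate it was -1.30 (adjusted p = 1.44e-08).

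Gpx7 (0.87) and Gpx8 (0.66), peroxidases of the endoplasmic reticulum, and Vkorc1 (0.52) were called higher in NOD on the same averaged log2 scale. All 3 calls were lost under the acinar covariate (1.03, adjusted p = 0.107, for Gpx7, 0.68, adjusted p = 0.110, for Gpx8 and 0.38, adjusted p = 0.105, for Vkorc1), and those of Gpx7 and Gpx8 also with islet number as a covariate (adjusted p = 0.0953 and 0.0687). Pdia2, an isomerase known from the exocrine pancreas, had 1.05, 1.17 and 0.885 CPM in B10 libraries and between 0 and 0.521 CPM in the other 9, and Erp27 had 1.58 to 2.07 CPM in B10 and 0 to 1.65 CPM elsewhere. Both were called lower in NOD (adjusted p = 0.00649 and 0.0219), and in both the B10_insHEL library with the high acinar score was the highest outside B10. Both calls were lost without that library (adjusted p = 0.0516 for Pdia2 and 0.556 for Erp27) and under the acinar covariate (log2 -2.00, adjusted p = 0.280, for Pdia2 and 0.20, adjusted p = 0.930, for Erp27). That of Erp27 was also lost without NOD replicate 1 (-2.48, adjusted p = 0.0508), without NOD_insHEL replicate 1 (-2.30, adjusted p = 0.0544) and in DESeq2's test (-2.94, adjusted p = 0.101). Gpx7 lost its call without any 1 of 5 libraries (B10 replicates 2 and 3, B10_insHEL replicate 3, NOD replicate 3 and NOD_insHEL replicate 1) and Gpx8 without NOD_insHEL replicate 2. Of the 6 stress regulators 3 were called lower and 0 higher, and of the 10 chaperones 3 lower and 0 higher, beside the 17.6% and 15.7% of all genes. Atf6 (-0.56), Ern1 (-0.77) and Eif2ak3 (-0.70) were the regulators, and of the chaperones Dnajc3 (-0.51) passed the size limit. Under the acinar covariate the 3 regulators stayed called (-0.44, -0.41 and -0.64 in the same order), Dnajc3 did not (-0.48, adjusted p = 0.0584), and 1 chaperone was called lower.

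For the 6 genes with a change of at least 0.58 on the log2 scale, the genes with the most similar profile over 12 libraries were looked up among 9656 genes, by the root mean square difference of centred log2 CPM. P4hb was nearest to Rpn1 (0.0690), Rwdd4a (0.0884) and Fam114a1 (0.0920), and Pdia3 to Ufsp2 (0.0820), Tvp23b (0.0867) and Fam114a1 (0.0957). Pdia6 was nearest to Sec22b (0.0854), Rpn1 (0.0882) and Selenos (0.0894), and Pdia4 to Papss1 (0.0877), Hspa5 (0.106) and Ssr3 (0.122). Rpn1 and Fam114a1 were thus each near to more than 1 of the genes, and Hspa5 is a listed chaperone gene. Txndc5 was nearest to Saraf (0.0693), Os9 (0.0797) and Fam174b (0.0887), and Pdia5 to Sept11 (0.0931), Exog (0.115) and H13 (0.123).

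Among the genes whose promoters hold the stress response element, Pdia6 rose with insHEL in both strains and Ero1lb passed the test in neither, and Hspa5 rose in both. Pdia4, P4hb and Pdia3 rose in both strains and hold no exact match in the bases searched. Near matches in their promoters were not looked for. A second form of the element, ATTGGNCCACG, was found in none of the 10 genes (12 of all promoters, 0.0365%). TGACGTGG, the core of the XBP1 site, was found at 1 of 3 start sites of Txndc5 (0.676% of all promoters), and TGATGCAA, a site shared by C/EBP and ATF factors, in none (0.895%). CCAAT alone, which is also the first part of the longer element, stood in the promoters of Pdia3, Pdia4, Pdia6, P4hb, Ero1lb and Prdx4, and in 37.4% of all promoters. A match of letters is a description and was not tested for binding.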

How the data were processed

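Raw read counts per Ensembl gene were deposited for 12 libraries. The submitters' processing notes name GRCm38 as the build and cutadapt, TopHat2 2.0.8b, HTSeq and DESeq as tools. The annotation release and strand setting are not given in the sources used here. Without a known strand setting, reads of Txndc5, Pdia3 and Pdia6 cannot be told apart from overlapping genes on the opposite strand (shared exon bases 18 to 311).

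Symbols, coordinates and lengths came from GENCODE vM21 on GRCm38, with 36639 of 38561 identifiers matched. Tests used edgeR 4.0.16 under R 4.3.3: filterByExpr, TMM scaling, 1 model of 4 group means over all 12 libraries, robust quasi-likelihood F-tests (two-sided) and Benjamini-Hochberg adjustment over 15352 genes at 0.05. The standard error of a log2 fold change is its size over the square root of F. Log2 CPM used a prior count of 2. DESeq2 1.42.0 served as an alternative. The fit was also run on simulated counts for the change with insHEL in NOD only, and the outcome is not given here. A gene at 0 counts can have been present at up to 0.142 to 1.36 CPM (3 counts, counting error only). No pair of libraries agreed within sampling noise (chi-square per degree of freedom 4.84 to 30.3).

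The 10 genes and all gene lists were chosen with earlier results of these data known. The other listed genes were named where adjusted p was under 0.05 and the absolute log2 fold change at least 0.5, with Pdia2 and Hspa5 in any case. P-values measure the spread between mice within groups of 3, estimated for each gene over all 12 libraries and drawn toward that of other genes. Alternatives were scaling, filter, covariates (acinar score, islets picked, 20 to 137), replicate number, compared groups alone, transcript length, DESeq2 and each library left out.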

Additional observations from a re-analysis of the deposited data

How the results depend on the processing

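Over the 10 genes and 6 comparisons, 1120 alternative values were computed. Of these 1023 kept direction and side of the threshold, 54 kept direction and lost the call, 14 gained a call and 29 changed sign, all of them values that were not called. The cause of these changes was not tested, apart from the fewer samples in the fits that leave out a library.

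With the acinar score as a covariate, genes called fell to 237 for insHEL in B10 (0 of the 10 genes higher), 1259 between NOD and B10 (0 lower) and 2351 for the averaged strain difference, and the interaction had 52. The averaged difference was then -0.071 for Pdia3, -0.084 for Pdia5 and 0.20 for Erp27, and the interaction 0.0019 for Pdia6 and 0.030 for P4hb. With islet number as a covariate, 1 gene was lower between NOD and B10, where Pdia3 was at 0.035, Pdia5 was at -0.011 in the averaged difference, Ero1l at -0.032 for insHEL in B10, and 5 genes had an interaction. With no filter on low counts, 2 of the 10 genes were lower between NOD_insHEL and B10_insHEL, Pdia5 was at -0.0088 in the averaged difference and 161 genes had an interaction. With the compared groups alone, 1197 genes and 0 of the 10 lower were called between NOD_insHEL and B10_insHEL, and 646 genes for insHEL in B10. DESeq2 called 2 of the 10 lower between NOD_insHEL and B10_insHEL, 2 higher in the averaged difference, and 83 genes for the interaction.

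With single libraries left out, genes called ranged from 107 to 1522 for insHEL in NOD (1 to 8 of the 10), 428 to 1566 for insHEL in B10 (4 to 6), 2868 to 4863 between NOD and B10 (1 to 2 lower) and 2 to 162 for the interaction. Of the 10 genes 0 to 1 were higher and 0 to 2 lower between NOD_insHEL and B10_insHEL, and 1 to 2 higher and 1 to 4 lower in the averaged difference. Signs changed for Pdia5 (-0.31 to 0.023) and Pdia6 (-0.35 to 0.0089) between NOD_insHEL and B10_insHEL, Pdia3 (-0.13 to 0.031) and P4hb (-0.074 to 0.033) between NOD and B10, Pdia5 (-0.060 to 0.11) and Pdia3 (-0.014 to 0.098) in the averaged difference, Ero1l (-0.015 to 0.072) for insHEL in B10, and Ero1lb (-0.11 to 0.13) and Pdia6 (-0.30 to 0.053) in the interaction.

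Same-numbered replicates did not deviate together over all tested genes (correlations -0.0951 to 0.0650), and the groups were compared as unpaired. A pairing that touches few genes would not show in these correlations. With the replicate block, 961 genes were called for insHEL in NOD and 1032 in B10, with 5 and 6 of the 10 higher, 2 of the 10 were lower in the averaged difference (Tmx1 at adjusted p = 0.0572), and Ero1lb was at -0.0017 in the interaction. DESeq2's size factors moved the median of all genes by under 0.1 (log2) in every comparison. Depth limits Ero1l and Prdx4 most, with 56 and 81 counts in the shallowest library.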
